A study of Rattus norvegicus with 18 samples.

Results

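DNA replication and nucleotide supply genes encode the proteins that copy the genome and make its building blocks. They were followed here in 9L, a rat gliosarcoma cell line used as a model of glioma, under low and normal oxygen in tumours and in culture. Members were taken from a fixed list of 55 genes, matched by gene symbol to the array annotation, and each gene was represented by its probe set with the highest mean. Of the 55, 52 were measured, among 14324 genes with a symbol. Dbf4, Pole2 and Chaf1a were not analysed here. The rule for membership uses no difference between groups, but the list was drawn up with earlier results of these data known.

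The study asked how low oxygen changes gene expression in a rat glioma growing in the animal and in the dish. Tumours were grown in Fischer 344 rats, labelled as males of 6 weeks, from pieces of a passaged 9L tumour tied to the epigastric vessels. EF5 is a nitroimidazole that is retained in cells at low oxygen. Laser capture microdissection took 2 areas from each of 3 tumours, 1 free of EF5 staining (called normoxic region here) and 1 stained for it (hypoxic region). The captured areas hold whole tissue, so host cells can be present. In the dish, 9L cells spent 6 h or 16 h in oxygen of about 20% (normoxic) or of 0.2% (hypoxic). Each of these 4 groups had 3 cultures, numbered 6, 13 and 26 at 6 h and 22, 28 and 29 at 16 h. Every sample, tumour or culture, was of the 9L line, and its RNA was amplified before hybridization. Whether cultures of 1 group came from independent experiments is not in the labels. Their p-values then reflect only how these samples varied, and that variation may be technical.

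Replication starts with licensing. The origin recognition complex (ORC), Cdc6 and Cdt1 load the ring of MCM proteins onto origins in G1, and geminin (Gmnn) blocks a second loading. Cyclin E with Cdk2, and Cdc7, then turn the loaded ring into the active helicase by adding Cdc45 and the GINS complex. Primase and the polymerases alpha, delta and epsilon copy the strands, Pcna clamps them to DNA, Rfc loads the clamp, Rpa covers single strands, and Fen1 and Lig1 join the lagging strand. Ribonucleotide reductase (Rrm1 and Rrm2), thymidylate synthase (Tyms), thymidine kinase (Tk1) and dUTPase (Dut) supply deoxynucleotides. Many of these genes are transcribed at the entry to S phase by E2F factors, of which E2f1 is a member here. Ribonucleotide reductase needs oxygen to form its radical, and replication slows in severe hypoxia.

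Because E2F factors are known to control many of these genes, their promoters were searched for the E2F site. RefSeq promoters (assembly GRCr8, 250 bases before each gene's start) were found for 44 of the 52 genes. None was found for Orc1, Orc4, Cdc6, Gins4, Rpa3, Rrm2, Ccne2 and E2f1, so these genes were not searched. The spellings TTTCCCGC, TTTGGCGC, TTTCGCGC and TTTGCCGC were searched on both strands, and overlapping matches on opposite strands were counted separately. A match was present in 11 of the 44 promoters (25%) and in 434 of all 19005 promoters (2.28%). The 11 genes were Orc3, Orc5, Mcm2, Mcm5, Mcm6, Mcm7, Mcm8, Gins1, Gins3, Pola1 and Tyms. The windows of 70 bases below show the site in 4 genes of the MCM ring, in a GINS subunit, in the catalytic subunit of polymerase alpha and in thymidylate synthase. They run 5′ to 3′ along the gene's strand, with the matched letters in capitals.
Mcm2, chr4:122918095-122918164, minus strand: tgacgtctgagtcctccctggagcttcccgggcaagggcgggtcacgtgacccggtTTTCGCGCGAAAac
Mcm5, chr19:13488569-13488638, plus strand: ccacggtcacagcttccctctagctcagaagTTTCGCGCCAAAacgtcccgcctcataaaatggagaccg
Mcm6, chr13:42404451-42404520, minus strand: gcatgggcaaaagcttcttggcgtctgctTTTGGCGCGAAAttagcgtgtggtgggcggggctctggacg
Mcm7, chr12:22163359-22163428, minus strand: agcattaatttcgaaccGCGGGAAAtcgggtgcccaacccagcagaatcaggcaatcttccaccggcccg
Gins1, chr3:160184850-160184919, plus strand: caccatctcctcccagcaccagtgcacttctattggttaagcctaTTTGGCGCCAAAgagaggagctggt
Pola1, chrX:62342489-62342558, minus strand: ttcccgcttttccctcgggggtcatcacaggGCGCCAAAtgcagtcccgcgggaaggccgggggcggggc
Tyms, chr9:120776084-120776153, minus strand: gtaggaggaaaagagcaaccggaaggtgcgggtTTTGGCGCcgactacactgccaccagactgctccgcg
In Mcm2, Mcm5, Mcm6 and Gins1 the capitals hold 2 overlapping matches, 1 on each strand. A match is a description of letters and not of binding.

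All values are log2 signals. Array medians were 6.36 to 6.5 in tumour samples and 6.02 to 6.19 in cultures, and precision is limited by how few arrays there were. Within a group, the correlation between arrays over probe sets was 0.937 to 0.964 in tumours and 0.988 to 0.996 in cultures. The glial and mesenchymal marker vimentin (Vim) lay at 11.89 to 12.38 in tumours and at 11.96 to 12.36 in cultures, while the astrocyte marker Gfap lay at 5.23 to 5.77 and 4.83 to 5.19, near or below the array medians. Others of the 7 glial and stem markers differed, with Nes at 6.97 to 7.81 and 5.91 to 6.41 and Cd44 at 8.65 to 9.94 and 9.81 to 10.46. In normoxic regions against normoxic cultures, limma called 5 of the 7 higher (43.6% of all probe sets) and 1 lower (20.7%). The 10 hypoxia genes fixed as a check had a mean of 7.14 to 7.87 in normoxic and 8.91 to 9.40 in hypoxic regions, and of 8.09 to 8.33 in normoxic and 9.57 to 10.36 in hypoxic cultures, with no overlap. One array stood apart in each source. The normoxic region of tumour 3 had the mean level of the 52 genes at 7.85, against 7.26 and 7.21 in the other normoxic regions. Hypoxic 16 h culture 28 had it at 8.22, against 8.60 to 8.88 in the other 11 cultures. Results that rest on either array are given with and without it. Both arrays were singled out by the level of these same genes, so p-values from fits without them are not independent tests.

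**Figure D1:**
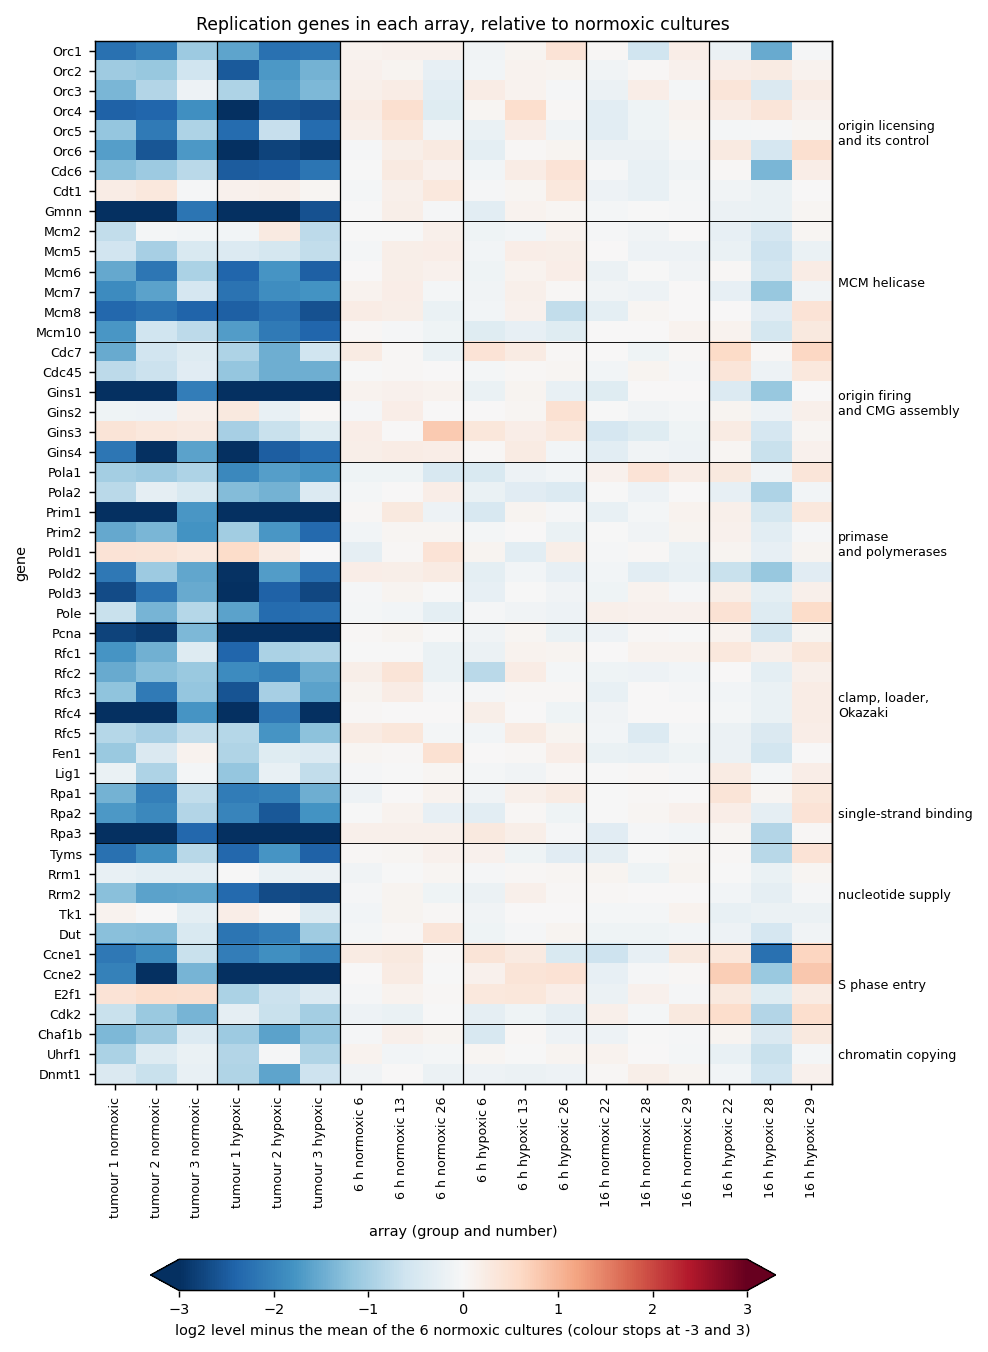
Log2 level of each of the 52 genes (rows, grouped by role) in each of the 18 arrays (columns), as colour relative to the mean of the 6 normoxic cultures, from -3 (blue) to 3 (red). Tumour columns are mostly blue, hypoxic regions more so than normoxic ones, and hypoxic 16 h culture 28 is the bluest culture column, with Ccne1 at 4.98 against 7.55 and 7.85 in cultures 22 and 29.

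Hypoxic regions were compared with normoxic regions of the same tumour. Replication genes were mostly at lower levels in the hypoxic regions: 47 of 52 had a lower mean and 5 a higher one, with a median difference of -0.52 on the log2 scale against 0.08 over all genes. The clamp Pcna showed the widest gap, 3.34-fold lower, followed by the cyclin Ccne2 (2.52-fold), the licensing factor Cdc6 (2.50-fold), the transcription factor E2f1 (2.20-fold), and the polymerase epsilon subunit Pole and the reductase subunit Rrm2 (2.13-fold each). None of them passed the test. limma called 0 of 27363 probe sets at adjusted p under 0.05 (0%) and therefore 0 of the 52 genes. At unadjusted p under 0.05, 23 of the 52 were lower and 0 higher, where 5.7% of all probe sets were lower and 3.42% higher. In 14 genes all 3 hypoxic values lay below all 3 normoxic ones (4.62% of all probe sets), and in 1, Rrm1, above them (11.8%).

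Pcna, the sliding clamp that holds polymerases on DNA, lay at 8.77, 8.68 and 10.20 in normoxic and at 6.85, 7.29 and 8.29 in hypoxic regions (tumours 1, 2 and 3, in that order here and below). Every hypoxic value was below every normoxic one, and tumour 3 was the highest of both kinds. The difference was -1.74 ± 0.20 (SE, n = 3 tumours; limma adjusted p = 0.145). Rrm2, the regulated subunit of ribonucleotide reductase, lay at 10.66, 10.31 and 10.34 in normoxic and at 9.59, 9.25 and 9.19 in hypoxic regions, a difference of -1.09 ± 0.18 (adjusted p = 0.198). The 3 tumours agreed closely here, at -1.06, -1.07 and -1.14. The other reductase subunit, Rrm1, lay near the floor of the array at 4.32 to 4.61 in all 6 regions, so its probe set can show little.

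Cdc6, which loads the MCM ring, lay at 8.25, 8.40 and 8.69 in normoxic and at 7.01, 7.05 and 7.30 in hypoxic regions. The groups were apart by more than their ranges, at -1.32 ± 0.18 (limma adjusted p = 0.163). E2f1, the activator of S phase genes, lay at 7.24, 7.33 and 7.32 in normoxic and at 5.88, 6.18 and 6.42 in hypoxic regions, at -1.14 ± 0.19 (adjusted p = 0.212). Ccne2, the second cyclin E gene, lay at 7.37, 6.40 and 8.0 in normoxic and at 5.89, 5.61 and 6.25 in hypoxic regions, at -1.34 ± 0.24 (adjusted p = 0.219). Its lowest normoxic value, in tumour 2, was close to its highest hypoxic value. Pole, the catalytic subunit of the leading-strand polymerase, lay at 8.48, 7.76 and 8.31 in normoxic and at 7.56, 6.84 and 6.89 in hypoxic regions, at -1.09 ± 0.20 (adjusted p = 0.232).

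Members of one complex did not all lie on the same side. Among the 9 licensing genes all 9 had a lower mean in hypoxic regions, with a median of -0.55, and 7 of 9 without tumour 3 (-0.41), where Orc1 and Orc5 were higher. The genes with an MCM name were divided, with 4 of 6 lower and a median of -0.37 (4 of 6 and -0.13 without tumour 3). Mcm8 and Mcm10, both lower, are counted there by name and are not subunits of the MCM ring. Mcm2 lay at 8.03, 8.71 and 8.70 in normoxic and 8.70, 9.04 and 8.0 in hypoxic regions, and Mcm5 at 7.98, 7.56 and 8.10 against 8.14, 8.02 and 7.82. In both the groups overlapped, with differences of 0.10 ± 0.29 and 0.11 ± 0.22 (95% intervals -0.62 to 0.81 and -0.41 to 0.64). Mcm6 differed by -0.65 ± 0.37 and Mcm7 by -0.63 ± 0.26 (limma adjusted p = 0.64 and 0.543). Mcm6 was 0.41 higher in the hypoxic region of tumour 2 and 0.83 and 1.51 lower in those of tumours 1 and 3, so the tumours did not agree.

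The primase and polymerase genes were lower in 8 of 8 (median -0.68), the clamp, clamp loader and Okazaki fragment genes in 8 of 8 (-0.36), and the GINS, Cdc45 and Cdc7 group in 5 of 6 (-0.55). Of nucleotide supply, 4 of 5 were lower (-0.55), of the single-strand binding genes 3 of 3 (-0.60) and of the genes that copy chromatin marks 3 of 3 (-0.36). Without tumour 3 these counts were 6 of 8 for primase and polymerases (-0.61), 6 of 8 for the clamp group (-0.12), 5 of 6 for the GINS group (-0.37), 3 of 5 for nucleotide supply (-0.03), 2 of 3 for single-strand binding (-0.32) and 2 of 3 for chromatin copying (-0.15). Prim2, Pold1, Rfc4, Fen1, Rpa3, Tk1 and Uhrf1 then had a higher mean in hypoxic regions, so their lower mean rested on tumour 3. Thymidylate synthase (Tyms) differed by -0.55 ± 0.35 (limma adjusted p = 0.659), at -0.13 and 0.07 in tumours 1 and 2 and -1.59 in tumour 3. Cyclin E1 (Ccne1) was at -0.40 ± 0.32 (adjusted p = 0.702), at 0.08 and 0.07 in tumours 1 and 2 and -1.35 in tumour 3. For Ccne1 the lower mean came from tumour 3 alone, and for Tyms the difference was -0.03 without it. The 5 genes with a higher mean were Mcm2, Mcm5, Gins2, Rrm1 and Cdk2, named after their values were seen. Cdk2, the kinase partner of cyclin E, lay at 7.44, 6.99 and 6.72 in normoxic and at 7.84, 7.43 and 7.10 in hypoxic regions, higher in each of the 3 tumours.

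**Figure D2:**
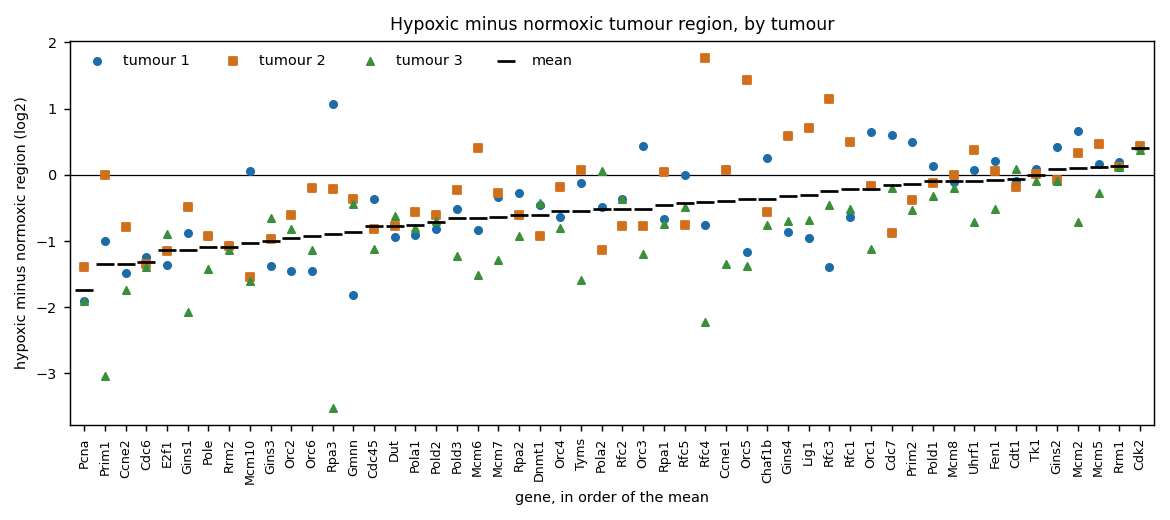
Hypoxic minus normoxic level (log2, y axis) of each of the 52 genes (x axis, in order of the mean), with 1 symbol for each of the 3 tumours and a bar for the mean. Pcna is at the left, with -1.91, -1.39 and -1.91 in tumours 1, 2 and 3, and Cdk2 at the right, with 0.40, 0.44 and 0.37; in between, the 3 symbols of a gene often lie apart.

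The tumours differed in size of effect. The median difference of the 52 genes was -0.475 in tumour 1, -0.225 in tumour 2 and -0.75 in tumour 3, and 23 genes were lower in all 3 (11% of all probe sets). The normoxic region of tumour 3 was the highest of the 6 tumour arrays for 31 of the 52 genes, against 18.5% of all genes. Without tumour 3, 37 of the 52 genes had a lower mean, with a median of -0.26, and 0 were called. Pcna (-1.65), Cdc6 (-1.29), Rrm2 (-1.06), E2f1 (-1.26), Ccne2 (-1.13) and Pole (-0.92) kept at least 0.92 of difference without it.

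The count of calls depended on the estimate of spread. A fit of all 18 arrays with 9 pairs as blocks, which takes most of its spread from the cultures, called 13 of the 52 genes, all lower (5.15% of all probe sets): Orc2, Orc6, Cdc6, Cdc45, Gins3, Pola1, Pold2, Pole, Pcna, Rrm2, Dut, Ccne2 and E2f1. Without tumour 1, limma called 5 (2.06% of all probe sets), namely Cdc6, Mcm10, Pcna, Rpa3 and Ccne2, from a fit with a single residual degree of freedom per gene. Names in both counts were taken after the values were seen.

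Other genes of the same processes were counted beside the members. Of 18 further replisome and origin factors, 15 were lower in hypoxic regions with a median of -0.33, and the chromatin remodeller Hells was at -1.75 ± 0.36 (limma adjusted p = 0.268). Of 28 further enzymes of nucleotide metabolism, 24 were lower with a median of -0.11, against 0.08 over all genes. Dctd, which makes dUMP from dCMP, was at -1.66 ± 0.24 (adjusted p = 0.177). Of 9 replication checkpoint genes 7 were lower, with Rad1, part of the clamp that signals stalled forks, at -1.21 ± 0.18 (adjusted p = 0.18). Of 17 mitosis genes 17 were lower, with a median of -0.83. The 6 CDK inhibitors lay at a median of -0.06, with Cdkn1b (p27) at 0.43 ± 0.18 (adjusted p = 0.563). None of these lists had a called gene. Without tumour 3, 15 of the 18 replisome factors (-0.21), 17 of the 28 nucleotide enzymes (-0.05), 6 of the 9 checkpoint genes (-0.31) and 16 of the 17 mitosis genes (-0.62) were lower.

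Markers of host cells moved with these differences. The mean of 14 macrophage markers was 8.06 to 8.68 in normoxic and 7.39 to 8.06 in hypoxic regions, and 11 of the 14 were lower. That of 10 T and NK cell markers was 6.67 to 7.90 and 6.17 to 6.46, with 9 of 10 lower, and its highest value was in the normoxic region of tumour 3. Without tumour 3, 8 of the 14 and 8 of the 10 were lower. The other host markers did not follow. Of endothelial markers 4 of 6 were higher in hypoxic regions (median 0.09), of skeletal muscle 6 of 8 (0.13) and of erythroid 3 of 4 (0.08). Without tumour 3, 2 of the 6, 4 of the 8 and 3 of the 4 were lower. The part of host cells in the result was not tested. In tissue samples, fewer replicating cells and less transcript per cell cannot be told apart.

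In cultures the same comparison was made at 6 h. Replication genes lay close to their normoxic level: 36 of 52 had a lower mean and 16 a higher one, with a median of -0.06 against 0.01 over all genes. limma called 52 of 27363 probe sets (0.19%) and 0 of the 52 genes. At unadjusted p under 0.05, 2 of the 52 were lower and 0 higher, where 2.03% of all probe sets were lower and 3.11% higher. In 4 genes (Mcm10, Gins1, Pola2 and Pold2) all hypoxic values lay below all normoxic ones (3.98% of all probe sets), and in 1, E2f1, above them (5.6%). The 2 genes at unadjusted p under 0.05 were polymerase subunits. Pold2, the small subunit of polymerase delta, lay at 9.90, 9.87 and 9.95 in normoxic and at 9.40, 9.61 and 9.44 in hypoxic cultures, with no overlap and a difference of -0.42 ± 0.16 (SE, n = 3; adjusted p = 0.846). Pola2, of polymerase alpha, was at -0.37 ± 0.17 (adjusted p = 0.971).

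The intervals bound what 6 h of hypoxia did to the main members. Rrm2 differed by 0.03 ± 0.11 with a 95% interval of -0.21 to 0.26, Pcna by -0.13 ± 0.15 (-0.45 to 0.20), Mcm2 by -0.08 ± 0.13 (-0.36 to 0.20) and Mcm5 by -0.01 ± 0.13 (-0.29 to 0.27). For Pcna and Rrm2 the interval ends well short of the gene's own difference between tumour regions. For Mcm2 and Mcm5 the difference between tumour regions lies inside the 6 h interval, so these genes show no such contrast. Cdc6 was at 0.06 ± 0.30 (-0.58 to 0.70), Tyms at -0.18 ± 0.23 (-0.68 to 0.32), Mcm6 at -0.03 ± 0.16 and Mcm7 at -0.04 ± 0.20. E2f1 lay at 6.80, 6.93 and 6.86 in normoxic and 7.14, 7.16 and 7.04 in hypoxic cultures, higher without overlap, at 0.25 ± 0.15 (limma adjusted p = 0.984). Ccne1 was at -0.13 ± 0.54 (-1.30 to 1.03), an interval too wide to place it. The spread behind these intervals was shared with the 16 h cultures. The SD of Ccne1 was 0.13 in normoxic and 0.45 in hypoxic 6 h cultures, but 1.58 in hypoxic 16 h cultures. For Cdc6 these were 0.15, 0.25 and 0.86. Without hypoxic 16 h culture 28, the SE of the 16 h difference was 0.26 for Ccne1 and 0.15 for Cdc6. The width of their 6 h intervals thus partly reflects that culture.

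At 16 h the median of the 52 genes was 0.02, with 28 higher and 24 lower, against -0.03 over all genes. limma called 193 probe sets (0.705%) and 0 of the 52 genes. At unadjusted p under 0.05, 2 were higher, Cdc7 and Rpa1, and 2 lower, Pold2 and Uhrf1, where 4.41% of all probe sets were higher and 3.79% lower. All hypoxic values lay above all normoxic ones in 4 genes, Orc4, Cdc7, Rfc1 and Rpa1 (6.6% of all probe sets), and below them in 4, Mcm5, Pold2, Rrm2 and Tk1 (8.13%). These shares are near those of all probe sets. Without hypoxic culture 28, 12 were higher and 1 (Pold2) lower at unadjusted p under 0.05, where 4.84% of all probe sets were higher and 3.38% lower. That culture was picked by its low level of these genes, so the count of higher genes is no independent result. Pold2 lay at 9.62, 9.37 and 9.47 in normoxic and at 9.02, 8.56 and 9.36 in hypoxic cultures, a difference of -0.51 ± 0.16 (adjusted p = 0.27), so it was lower without overlap at both times. Leaving out hypoxic culture 28 gave -0.30 (adjusted p = 0.552), and leaving out hypoxic culture 29 gave -0.70, which was called (adjusted p = 0.0467). Cdc7, the kinase that fires origins, lay at 7.65, 7.51 and 7.68 in normoxic and at 8.23, 7.69 and 8.27 in hypoxic cultures, at 0.45 ± 0.16 (adjusted p = 0.401). Rpa1, the large subunit of the single-strand binding protein, was at 0.26 ± 0.12 (adjusted p = 0.601) and Uhrf1, which guides maintenance methylation, at -0.34 ± 0.14 (adjusted p = 0.502). Without culture 28, Uhrf1 was at -0.16.

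The near-zero median at 16 h joined hypoxic cultures at unlike levels. Each is set here beside the normoxic culture of its number, though the labels do not say that numbers mark pairs. Over the 52 genes, the median difference was 0.20 for culture 22, 0.20 for culture 29 and -0.40 for culture 28. Hypoxic culture 28 was the lowest of the 3 hypoxic cultures for 48 of the 52 genes (92.3%), against 40% of all genes, and the lowest of all 12 cultures for 35 (67.3%), against 18.4%. By role, the median of culture 28 minus the mean of cultures 22 and 29 was -1.63 for the 4 genes of S phase entry, which act as G1 passes into S, and -0.15 for the 9 licensing genes, the smallest of the 9 roles. For the MCM genes, for origin firing and for chromatin copying it was -0.61 each. Cyclin E1 (Ccne1) lay at 7.55, 4.98 and 7.85 in hypoxic cultures 22, 28 and 29 and at 6.59, 6.96 and 7.50 in normoxic ones of the same numbers. Cyclin E2 (Ccne2) lay at 10.13, 8.29 and 10.20 and at 9.14, 9.36 and 9.43. In both genes culture 28 was below every normoxic culture and cultures 22 and 29 were above every one.

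Cdc6 lay at 9.54, 8.14 and 9.71 in hypoxic cultures 22, 28 and 29, Orc1, the ATPase of the origin complex, at 7.72, 6.37 and 7.86, and Cdk2 at 8.64, 7.24 and 8.62. Culture 28 was more than 1 log2 unit below the others in these 3 genes. Against the mean of cultures 22 and 29 it differed by -2.72 for Ccne1, -1.87 for Ccne2, -1.49 for Cdc6, -1.42 for Orc1, -1.39 for Cdk2 and -1.06 for Tyms, by -0.65 for Pcna and -0.64 for E2f1, and by -0.21 for Rrm2. Among the other licensing genes Orc3 (-0.72) and Orc6 (-0.86) were lower too, while the rest lay close to cultures 22 and 29, with Orc2 at 0.10, Orc4 at 0.17, Orc5 at -0.02 and Cdt1 and Gmnn at -0.15 each. Outside the 52 genes, the E2F factor E2f7 (-1.04), the phosphatase Cdc25a (-0.96), which activates Cdk2, and Rad1 (-0.94) were lower as well, and the CDK inhibitor Cdkn1b (p27) was 0.82 higher. These genes were singled out after their values were seen.

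Mitosis genes did not follow. Their mean was 9.11, 9.23 and 9.29 in hypoxic cultures 22, 28 and 29, so culture 28 lay between the others. The mean of the 10 hypoxia genes was 10.03, 10.36 and 9.85, highest in culture 28. The array had a median of 6.12 (6.12 and 6.07 in cultures 22 and 29) and an SD of 2.06 (2.10 and 2.11), but over all probe sets its correlation with the mean of normoxic cultures, 0.984, was the lowest of the 12 cultures (0.992 to 0.997 in the others). The cause of its difference was not tested, and the normoxic culture of the same number (mean of the 52 genes 8.65) lay between cultures 22 (8.60) and 29 (8.72).

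**Figure D3:**
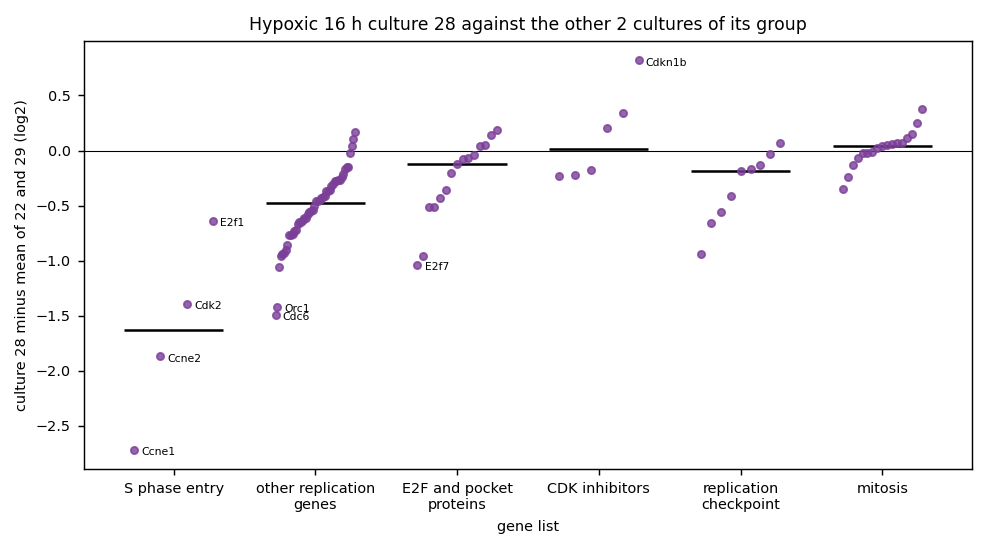
Level of hypoxic 16 h culture 28 minus the mean of hypoxic cultures 22 and 29 (log2, y axis), for 6 gene lists (x axis), with 1 point a gene and a bar at the list's median. The 4 genes of S phase entry have a median of -1.63, with Ccne1 lowest at -2.72, while the 17 mitosis genes have a median of 0.04.

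Without hypoxic culture 28, 40 of the 52 genes were higher and 12 lower after 16 h of hypoxia, with a median of 0.18 against -0.02 over all genes. Cyclin E2 was then at 0.86 ± 0.13 (limma adjusted p = 0.00795), the only one of the 52 called (0.625% of all probe sets). The culture left out had been picked by its low level of these genes, with Ccne2 at 8.29. This p-value is therefore not an independent test of a rise. Ccne1 was then at 0.68 ± 0.26 (adjusted p = 0.447), Cdc6 at 0.25 ± 0.15 (adjusted p = 0.739) and Tyms at 0.29 ± 0.15 (adjusted p = 0.673). With the culture they were at -0.23 ± 0.54, -0.25 ± 0.30 and -0.06 ± 0.23, and Ccne2 at 0.23 ± 0.36. Culture 28 thus set the sign of Ccne1, Cdc6, Tyms and Pcna, the last at -0.07 ± 0.15 with it and 0.15 ± 0.11 without. E2f1 was at 0.09 ± 0.15 with all cultures, Mcm2 at -0.20 ± 0.13, Mcm5 at -0.24 ± 0.13, Mcm6 at 0.00 ± 0.16, Mcm7 at -0.42 ± 0.20 and Rrm2 at -0.15 ± 0.11 (95% interval -0.38 to 0.08). Without culture 28, E2f1 was at 0.30, Mcm2 at -0.06, Mcm5 at -0.10, Mcm6 at 0.23, Mcm7 at -0.11 and Rrm2 at -0.08, and none of these was called.

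Genes of neighbouring processes were counted beside the members at 16 h. Of 17 mitosis genes 2 fell, Ccnb1 (-1.0 ± 0.17, limma adjusted p = 0.0138) and Kif20a (-0.76 ± 0.16, adjusted p = 0.0468), both of which act in mitosis, and 16 of 17 had a lower mean. Without hypoxic culture 28, Ccnb1 was still called (-1.04, adjusted p = 0.0295) but Kif20a was not (-0.78, adjusted p = 0.0856). The E2F family member E2f5 fell by 0.62 (adjusted p = 0.0229), and the pyrimidine synthesis enzyme Dhodh rose by 0.67 ± 0.13 (adjusted p = 0.0306). The CDK inhibitors Cdkn1a and Cdkn1b were at 0.74 ± 0.24 and 0.60 ± 0.19 (adjusted p = 0.291 and 0.294), and of the 6 inhibitors none was called. Cdkn1b was at 0.33 without culture 28. No checkpoint gene and none of the 18 further replisome factors was called. The 6 h and 16 h responses were also compared with each other. The median difference of responses over the 52 genes was 0.05, limma called 0 of 27363 probe sets (0%), and 0 of the 52 genes passed at unadjusted p under 0.05. Without hypoxic culture 28 the median was 0.22 and 45 of 52 were higher, again with 0 called.

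**Figure D4:**
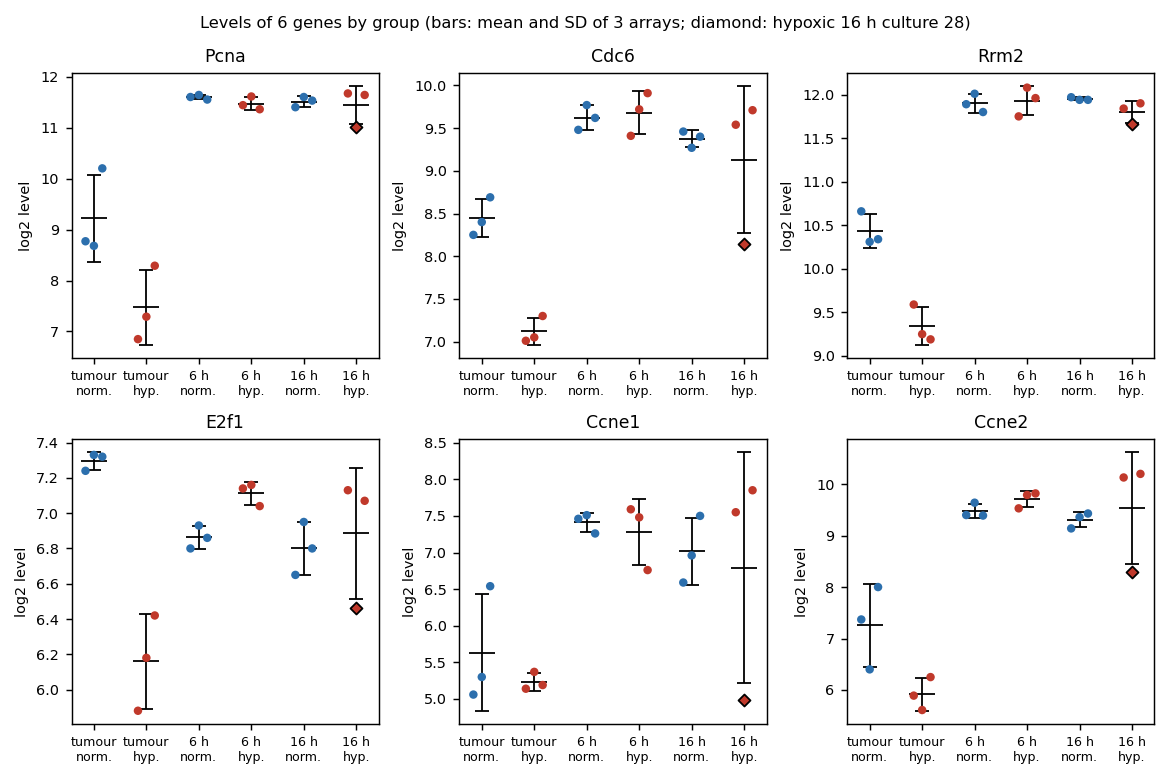
Log2 level (y axis) of Pcna, Cdc6, Rrm2, E2f1, Ccne1 and Ccne2 in the 6 groups (x axis), with 1 point an array, hypoxic groups in red, normoxic in blue, and mean and SD of 3 arrays as bars. The y axes differ between panels and do not start at 0; the diamond marks hypoxic 16 h culture 28, at 4.98 for Ccne1 and 8.29 for Ccne2.

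Normoxic cultures at 16 h and at 6 h were compared to see what time in culture did without hypoxia. The median of the 52 genes was -0.12, with 39 lower and 13 higher, and 0 were called, where limma called 4.86% of all probe sets. The nearest to the threshold were Pola1, the catalytic subunit of polymerase alpha, at 0.50 ± 0.15 (adjusted p = 0.0752) and the GINS subunit Gins3 at -0.66 ± 0.20 (adjusted p = 0.0769). Pola1 lay at 9.49, 9.51 and 9.14 at 6 h and at 9.76, 10.03 and 9.84 at 16 h, without overlap. In hypoxic cultures the median was -0.04 and 0 were called, with 2.93% of all probe sets called. Without hypoxic culture 28, Mcm10 (0.52 ± 0.11, adjusted p = 0.0339), Pole (0.60 ± 0.11, adjusted p = 0.0166) and Cdk2 (0.74 ± 0.12, adjusted p = 0.00965) were called higher at 16 h (1.42% of all probe sets). That culture was left out for its low level of these same genes, so these calls are not independent tests either. The times were run on differently numbered cultures, so time and culture set cannot be told apart.

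Tumour tissue was then set against cultures of the same label. The labels give no oxygen level for the tumour regions, which were told apart by EF5, so normoxic and hypoxic need not mean the same oxygen in tumours and cultures. Normoxic regions held less transcript of most replication genes than normoxic cultures: 43 of 52 fell and 2 rose, where 20.7% of all probe sets were lower and 43.6% higher. The median was -1.13, against 0.21 over all genes. The split depends on the scaling. After median centring 48 fell and 0 rose (31% of all probe sets lower, 16% higher), after quantile normalization 31 fell and 3 rose (16.3% and 22%), and after cyclic loess 32 fell and 2 rose (18.6% and 18.3%). Rpa3, the small subunit of the single-strand binding protein, fell (-4.53 ± 0.57, limma adjusted p = 1.06e-05), but its normoxic tumour values were 4.87, 4.33 and 7.87. The first and the second lie close to the 4.32 to 4.61 of Rrm1, near the floor of the array, so no fold is given, and tumour 3 lay far above them. Gins1 was 7.73-fold lower (-2.95 ± 0.26, adjusted p = 4.94e-07), Mcm8 5.04-fold (-2.33 ± 0.18, adjusted p = 1.58e-07), Gins4 4.85-fold (-2.28 ± 0.25), Orc4 4.61-fold (-2.21 ± 0.19), Pold3 4.40-fold (-2.14 ± 0.21), Orc6 3.96-fold (-1.98 ± 0.21) and Rrm2 2.80-fold (-1.49 ± 0.12). Mcm8 lay at 5.03 to 5.19 in normoxic regions, low on the array, so its fold is less certain. Gins1 and Gins4 are subunits of one complex, and in its other subunits the picture was different. Gins2 lay at 7.26 to 7.55 in normoxic regions and 7.30 to 7.61 in normoxic cultures, and Gins3 at 7.94 to 8.04 and 7.17 to 8.44, and neither was called. Gins3 was called higher in normoxic regions after quantile normalization (0.74) and cyclic loess (0.52), but not after median centring (0.01).

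E2f1 and Pold1 were higher in normoxic regions than in normoxic cultures in the values as deposited. E2f1 lay at 7.24, 7.33 and 7.32 against 6.65 to 6.95 in the 6 cultures, without overlap, and rose by 0.47 ± 0.14 (limma adjusted p = 0.00937). It was no longer called after median centring (0.15) or cyclic loess (0.23). Pold1, the catalytic subunit of polymerase delta, lay at 7.87, 7.84 and 7.77 against 7.19 to 7.88, and passed narrowly (0.37 ± 0.16, adjusted p = 0.0497). It was not called after median centring (0.06) or without any single one of 8 of the 9 arrays. The other 7 genes, Cdt1, Mcm2, Gins2, Gins3, Fen1, Lig1 and Tk1, were not called. For Mcm2 the difference was within its spread, with levels of 8.03, 8.71 and 8.70 in normoxic regions and 8.68 to 8.92 in normoxic cultures.

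Hypoxic regions against hypoxic cultures gave a wider gap: 45 of 52 fell and 0 rose, where 22.5% of all probe sets were lower and 53.5% higher, and the median was -1.74 against 0.32 over all genes. After median centring 50 fell and 0 rose (31.7% of all probe sets lower, 26.7% higher), after quantile normalization 42 fell and 2 rose (19.4% and 30.5%), and after cyclic loess 43 fell and 2 rose (22.2% and 20.5%). Pcna was 15.76-fold lower (-3.98 ± 0.31, limma adjusted p = 6.87e-08), Gins1 13.77-fold (-3.78 ± 0.26), Orc4 7.84-fold (-2.97 ± 0.19), Orc6 7.61-fold (-2.93 ± 0.21), Pold3 6.65-fold (-2.73 ± 0.21), Rrm2 5.73-fold (-2.52 ± 0.12, adjusted p = 5.1e-10), Mcm8 5.02-fold (-2.33 ± 0.18) and Pola1 3.38-fold (-1.76 ± 0.13). In hypoxic regions Gins1 lay at 5.08 to 5.17 and Mcm8 at 4.83 to 5.18, low on the array, so their folds are less certain. Cdt1, Mcm2, Gins2, Pold1, Rrm1, Tk1 and Cdk2 were not called. For Cdk2 this rests on hypoxic culture 28: the difference was -0.57 with that culture and -0.80 without it. Without it Cdk2 was called (limma adjusted p = 0.000736) and 46 genes fell, where 75.2% of all probe sets were called in either direction. Pold1 was called higher after quantile normalization (0.64) and cyclic loess (0.44). Cdt1, Mcm2, Gins2 and Tk1 were without a call in either comparison in the values as deposited. After median centring Mcm2, Gins2 and Tk1 were called lower in normoxic regions, and Cdt1, Gins2 and Tk1 in hypoxic regions. Cdt1 was called lower in hypoxic regions after cyclic loess too. Mcm2 was called higher in hypoxic regions after quantile normalization (0.62) and cyclic loess (0.68), so its direction depends on the scaling.

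**Figure D5:**
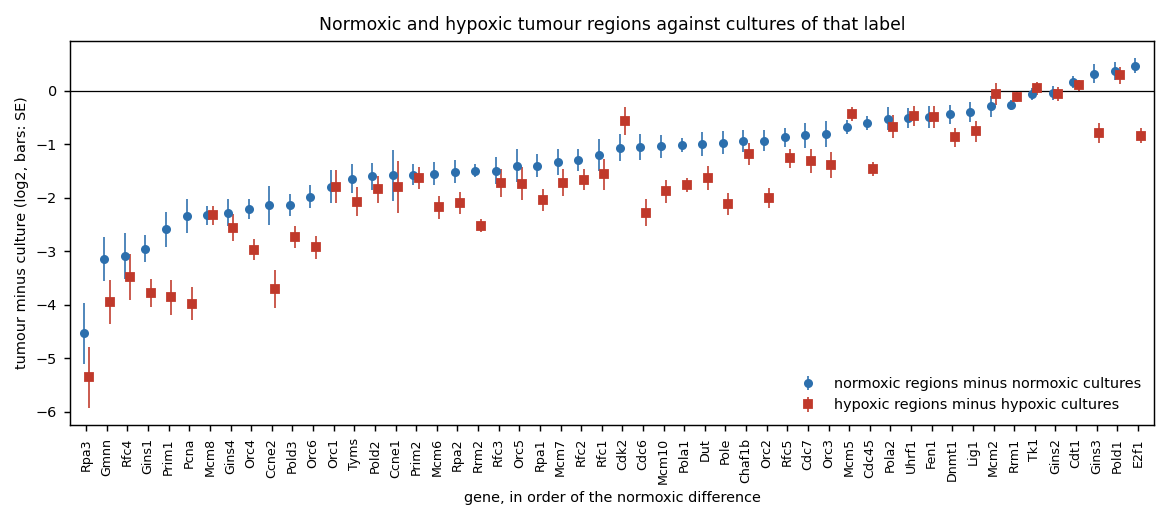
Tumour minus culture level (log2, y axis) of each of the 52 genes (x axis, in order of the normoxic difference), with normoxic regions against normoxic cultures in blue and hypoxic regions against hypoxic cultures in red; bars are SE. Rpa3 is at the left at -4.53 and -5.36, and E2f1 at the right at 0.47 and -0.84, on opposite sides of 0.

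These differences between tumour and culture carry limits. Their fit used 1 spread shared by the 6 groups, taken mostly from the cultures, whose arrays varied less. The errors and p-values given for them may thus be too small for tumours. For Rpa3 the SD was 1.91 in normoxic regions and at most 0.54 in a culture group. Pold1 went the other way, at 0.05 in normoxic regions and up to 0.34 in a culture group. Tumour arrays had a narrower range of values (SD 1.76 to 1.92) than cultures (2.04 to 2.17), and bright genes lay lower in tumours in general. With genes in 4 equal groups by mean level, the median normoxic difference in the brightest group was -0.89 over all genes and -1.40 over the 29 members in it, and in the next group -0.05 and -0.94 over 21 members. Macrophage markers had a mean of 7.39 to 8.68 in tumours and 5.29 to 5.48 in cultures, and T and NK cell markers 6.17 to 7.90 and 5.19 to 5.51. The part of host cells and of the narrower range in the result was not tested.

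Last, the hypoxia response of the tumours was compared with the mean response of the cultures in a fit of all 18 arrays. This fit uses a spread shared by tumours and cultures, taken mostly from the cultures, whose arrays varied less. The errors below may thus be too small for tumours. Here 5 of the 52 genes were called, all as a more negative response in tumours (0.987% of all probe sets), and the median over the 52 was -0.41 against 0.08 over all genes. Pcna differed by -1.64 ± 0.21 (limma adjusted p = 0.00966), Rrm2 by -1.03 ± 0.14 (adjusted p = 0.0111), E2f1 by -1.31 ± 0.21 (adjusted p = 0.025), Pole by -1.14 ± 0.22 (adjusted p = 0.0446) and Orc2, a core subunit of the origin complex, by -1.07 ± 0.21 (adjusted p = 0.0446). Orc2 lay at 8.17, 8.11 and 8.63 in normoxic and 6.72, 7.51 and 7.81 in hypoxic regions, while all 12 cultures lay between 8.99 and 9.49. E2f1 lay below its normoxic range in the hypoxic regions and above it in 6 h hypoxic cultures. The number of calls varied from 1 to 14 when a pair of arrays was left out: it was 14 without tumour 2, 1 without 6 h pair 13, and 2 without 16 h pair 22 or 29 or without 6 h pair 6 or 26. The share of all probe sets called in each run is not given beside these counts. They show only that the number depends on the arrays used. Over the 9 runs without a pair Pcna kept its call in each, while Rrm2 lost it in 1, E2f1 in 5, Pole in 6 and Orc2 in 7. The fit pairs cultures by number, which the labels do not state. Without the pair blocks Pcna (limma adjusted p = 0.098), Pole (0.0836) and Orc2 (0.0738) were not called. The median over the 52 was -0.68 without tumour 2 and -0.24 without tumour 3.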

How the data were processed

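Total RNA from 3 tumours, with 2 laser-captured regions each, and from 12 cultures of 9L cells was amplified before labelling, and per the labels each sample was read on 1 Rat Gene 1.0 ST array (Affymetrix). The authors deposited log2 signals per probe set. The submitters' processing notes name RMA and Partek 6.5b. Values ran from 2.16 to 13.8. Whether tumours and cultures were normalized as 1 set is not stated, which bears on their comparison.

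The platform annotation gave 1 symbol to 15097 of the 27363 probe sets, several to 323, and the other 11943 were tested without a name. 319 probe sets shared all 18 values with another. Of the 52 genes, 2 (Rpa3 and Rrm2) had more than 1 probe set, and the brighter one was used.

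limma 3.58.1 in R 4.3.3 gave two-sided tests (lmFit, then eBayes). p-values were adjusted by Benjamini-Hochberg across the 27363 probe sets, with 0.05 as the threshold. "Called", "rose" and "fell" mean past it. Tumour regions were fitted alone with the tumour as a block, cultures as 4 groups, tumours against cultures as 6 groups (each tumour group against the mean of the 6 h and 16 h groups), and the difference of responses over 18 arrays with 9 pairs as blocks. The fits were tested on simulated data. Deviations of same-numbered cultures from their group means correlated at 0.125 to 0.193 at 6 h and at 0.130 to 0.307 at 16 h. For 6 h number 6, a hypoxic culture of another number correlated more (0.177 against 0.125). For tumour 2, a hypoxic region of another tumour did (0.167 against 0.036). The labels do not say that culture numbers mark pairs, and these values do not settle it. The main culture fits used no block, which was run as an alternative, while the difference of responses used it.

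Named with differences were called genes (at most 8 per direction, by p), the 6 with the smallest p where fewer than 4 were called, and Pcna, Mcm2, Mcm5, Mcm6, Mcm7, Cdc6, Rrm2, Tyms, E2f1 and Ccne1. Other lists are given by counts with up to 3 genes each. The 52 genes and all lists were chosen with earlier results of these data known. Alternatives were other scalings, a filter on dim probe sets, the eBayes setting, the second probe set, the block, and each array or pair left out.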

Additional observations from a re-analysis of the deposited data

Results flagged for a closer look

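The hypoxia response differed between tumours and cultures, by the interaction test in limma over all 18 arrays, for 5 of the 52 genes. That fit takes most of its spread from the cultures, which varied less than tumours. The fit of tumour arrays alone called 0 of the 52 between regions. The tumour response minus the mean culture response was -1.64 for Pcna, -1.03 for Rrm2, -1.31 for E2f1, -1.14 for Pole and -1.07 for Orc2, each with a lower value in the hypoxic region of 3 of 3 tumours. Pcna was called in every run that left out a pair, at an adjusted p of 0.00375 to 0.0474, but not without the pair blocks (0.098). Rrm2 missed the threshold only without 6 h pair 13 (0.0507) among the runs that left out a pair. The other calls were less stable. E2f1 missed the threshold in 5 of the 9 runs that left out a pair (without 16 h pair 22 or 29 and without 6 h pair 6, 13 or 26), with an adjusted p of up to 0.0857. Pole missed it in 6 of 9 (up to 0.127), and also after median centring, with the eBayes trend and robust setting and without the pair blocks. Orc2 missed it in 7 of 9 (up to 0.128), and also after quantile normalization or cyclic loess, with the eBayes trend and robust setting and without the pair blocks. Groups of 3 arrays are too small for a test of outlying arrays, so culture 28 and tumour 3 are described by their values alone.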

How the results depend on the processing

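The count of genes called between tumour regions was 0 in most runs, 13 in the fit of all 18 arrays with 9 pairs as blocks, and 0 to 5 with a tumour left out; the latter rests on a spread shared by all probe sets. The median of the 52 genes there stayed at -0.75 to -0.26. For 16 h hypoxia the count was 0 to 1 with an array left out, and for 16 h against 6 h in hypoxia 0 to 3 with an array left out and 1 after cyclic loess. For 16 h against 6 h in normoxia it was 1 after quantile normalization, median centring or cyclic loess, where the median of the 52 was -0.03 after quantile normalization and -0.21 after median centring. With culture number as a replicate block, 0 genes were called at 6 h, at 16 h and in the difference of both times, as without it, so the block changed no call in cultures. The median for normoxic tumour regions against cultures was -0.86 after quantile normalization, -1.44 after median centring and -0.72 after cyclic loess, and for hypoxic regions -2.09 after median centring and -1.23 after cyclic loess. These scalings moved the median of all probe sets by -0.187 to -0.313 and by -0.26 to -0.357. For the tumour response minus the culture response the count was 3 with the eBayes trend and robust setting, 3 with no replicate block, and 1 to 14 with a pair left out, and the median with a pair left out was -0.68 to -0.24. The counts in this paragraph are given without the share of all probe sets called in each run. The causes of the changes between runs were not tested beyond that.

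Single genes that crossed 0 were not called in the runs where they did. At 16 h the runs without hypoxic culture 28 gave the highest values of Ccne1, Cdc6, Tyms, Pcna, E2f1 and Mcm6. With an array or tumour left out, ranges were -0.19 to 0.50 for Mcm2, -0.06 to 0.31 for Mcm5 and -0.64 to 0.08 for Ccne1 between tumour regions. At 6 h they were -0.09 to 0.08 for Mcm5, -0.11 to 0.06 for Mcm6, -0.11 to 0.02 for Mcm7, -0.05 to 0.12 for Rrm2, -0.05 to 0.19 for Cdc6 and -0.29 to 0.12 for Ccne1. At 16 h they were -0.15 to 0.23 for Mcm6, -0.03 to 0.30 for E2f1, -0.18 to 0.15 for Pcna, -0.54 to 0.25 for Cdc6, -0.33 to 0.29 for Tyms and -0.76 to 0.68 for Ccne1. Mcm5 at 6 h was 0.0036 after quantile normalization, Rrm2 at 6 h -0.01 after median centring and -0.0037 with its second probe set, and Mcm6 at 16 h -0.0011 after cyclic loess. Dim probe sets, such as that of Rrm1, limit what can be seen.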
